A study of Mus musculus with 2 samples.

Results

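Transcripts of 6 genes of the Ly6 family (Ly6a, Ly6c1, Ly6d, Ly6e, Psca and Lypd2) were examined, out of 22072 gene symbols in the deposited tables. They were chosen by name with their values in these libraries already known, so their levels and differences are given as a description. Sorted lung cells of adult mice had been profiled by RNA-seq, in 2 libraries made from the pooled RNA of 4 mice each. Both groups received doxycycline food (625 mg/kg) for 16 days, and both carried tetOCre, a Cre recombinase gene under a tetracycline-responsive promoter, together with Mst1-flx/flx and Mst2-flx/flx alleles, in which Cre can delete these upstream kinase genes of the Hippo pathway. The control mice had tetOCre/Mst1-flx/flx;Mst2-flx/flx and no activator for the Cre gene. The other mice also carried Scgb1a1-rtTA, a doxycycline-dependent activator under the promoter of the club cell secretory protein gene. The activator, active Cre and the intended deletion therefore cannot be told apart, and only cells that used this promoter could delete the genes. The sort kept cells that were Lin-, CD326+ and CD24-intermediate, to enrich secretory airway cells without cilia.

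There was 1 library per genotype, so no value had a replicate error, the spread between replicates is not known, and no test was made. Levels are in FPKM, the authors' fragment numbers per length of transcript and per depth of sequencing, a scale on which genes of different length can be compared. The intervals are exact 95% intervals for counting error, from about 8770000 (control) and 8340000 reads on the transcripts of the tables. They cover no variation between mice, sorts or library preparations. Of 28107 transcript rows, 316 and 347 did not have the status OK, whereas all 6 members did. The kinase genes themselves were at 5.38 and 4.71 FPKM (Stk4, which encodes Mst1) and at 7.28 and 7.09 FPKM (Stk3, which encodes Mst2), and neither gene was strongly lower. Since the removed exons are not stated, the label could not be checked, and the second pool is named by it throughout. The sort antigen genes Epcam (FPKM 28.2 and 31.0) and Cd24a (127 and 116) were present in both. Scgb1a1, the defining club cell gene, was listed at 0 in both but lacked the status OK, so that 0 is not read as a measured level. The club cell cytochrome gene Cyp2f2 stood at 4694 and 5305 FPKM. In bulk RNA, fewer cells of a type and less RNA per cell cannot be told apart.

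Ly6 proteins are small cell surface proteins of a compact fold held together by disulfide bonds. Most are tethered to the outer leaflet of the membrane by a glycosylphosphatidylinositol (GPI) anchor, although some relatives are secreted. Several are used as surface antigens to sort stem cells and leukocytes, and others bind receptors, modulate nicotinic acetylcholine receptors or affect virus entry. In mouse, many of the genes lie side by side on chromosome 15. Ly6a encodes Sca-1, which is used to sort stem and progenitor cells of many tissues and is also carried by endothelial and some mesenchymal cells of the lung.

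All 6 members lay on chromosome 15, within 334 kb of the mm9 build, in the order Psca, Lypd2, Ly6d, Ly6e, Ly6a and Ly6c1. In GENCODE models of GRCm38, their coding sequences had 372 to 411 bases, 4 of them on the minus strand and 2 on the plus strand, in transcripts of 3 or 4 exons. The first 60 coding bases are shown for the members that were most unlike the others, because reads from these genes cannot be confused with each other; capitals mark the start codon.
Psca: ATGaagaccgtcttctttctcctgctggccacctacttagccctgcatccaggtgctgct
Lypd2: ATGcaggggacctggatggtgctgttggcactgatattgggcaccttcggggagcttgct
Ly6d: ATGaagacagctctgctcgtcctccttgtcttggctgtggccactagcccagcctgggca
Ly6e: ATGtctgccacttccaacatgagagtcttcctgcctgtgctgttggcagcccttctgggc

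For the transcripts of Psca, Lypd2, Ly6d and Ly6e, 0% of stretches of 50 bases occurred on either strand in GENCODE transcripts of any other gene. Ly6a and Ly6c1 had close relatives beside them, the genes Ly6i and Ly6c2, which are not among the members. The first 60 coding bases of these 4 genes are shown to let the likeness be seen; capitals mark the 9 positions at which the 4 were not all equal.
Ly6a: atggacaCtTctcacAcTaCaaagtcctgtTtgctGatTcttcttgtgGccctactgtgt
Ly6i: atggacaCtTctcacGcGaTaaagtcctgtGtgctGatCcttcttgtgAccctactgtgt
Ly6c1: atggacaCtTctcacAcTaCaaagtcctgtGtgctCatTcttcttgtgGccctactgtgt
Ly6c2: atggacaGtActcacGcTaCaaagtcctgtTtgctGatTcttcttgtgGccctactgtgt

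Over whole coding sequences, Ly6c1 and Ly6c2 were 97.7% identical, Ly6a and Ly6i 86.4%, and Ly6a and Ly6c1 82.0%. Identity between members ranged from 45.0% to 82.0% over 15 pairs, with a median of 47.5%. Ly6a and Ly6c1, the most alike pair of members, differed most between coding positions 167 and 226, where 20 of 60 bases were unlike. That stretch, one of those in which a read can be assigned to 1 of these 2 genes, is shown with the unlike bases in capitals.
Ly6a: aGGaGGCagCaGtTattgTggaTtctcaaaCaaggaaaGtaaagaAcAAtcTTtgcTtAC
Ly6c1: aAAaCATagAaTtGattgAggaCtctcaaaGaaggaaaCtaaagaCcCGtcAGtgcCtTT

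Of the 50-base stretches of the Ly6c1 transcript, 36.7% also occurred in a transcript of another gene, 31.7% in Ly6c2 and 5.03% in Ly6a. For Ly6a the share was 10.04%, spread over Ly6c1 (4.42%), Ly6i (3.42%) and I830127L07Rik (2.21%). The FPKM of Ly6c1 and Ly6c2 thus depend on how Cufflinks divided reads that match both, and are uncertain, as is that of Ly6a to a smaller degree. The read length is not given in the sources used here, and with 36 bases the shares were 51.2% for Ly6c1 and 18.4% for Ly6a. For Ly6e the share was then 0.445%, in Ly6e-ps1, and for Psca, Lypd2 and Ly6d it stayed at 0%.

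The comparison of the pools concerned how these surface protein genes differed when secretory airway cells of adult mice were to lose both kinases. Psca was 5.01-fold higher and Ly6a was 2.16-fold lower in the pool labelled Mst1/2-deleted, whereas the other members lay closer together. A gene was counted as apart when its difference on the log2(FPKM + 1) scale reached 1.5-fold, a scale that understates the change of low genes. By this rule 1 member was higher, 1 lower and 4 were within 1.5-fold. Of the 9945 genes that reached FPKM of 1 in either pool, 3.02% passed 1.5-fold in the higher direction and 2.59% in the lower. Rescaled to TPM, with the cut-off of 1 and the added 1 applied on that scale, the shares were 6.79% and 8.79%. That set takes in genes under FPKM of 1, as do the TPM counts of lists below. Since the members were chosen with these differences known, nothing is read from their count. Their median log2 difference was -0.05, beside 0.07 for the 9945 genes.

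**Figure D1:**
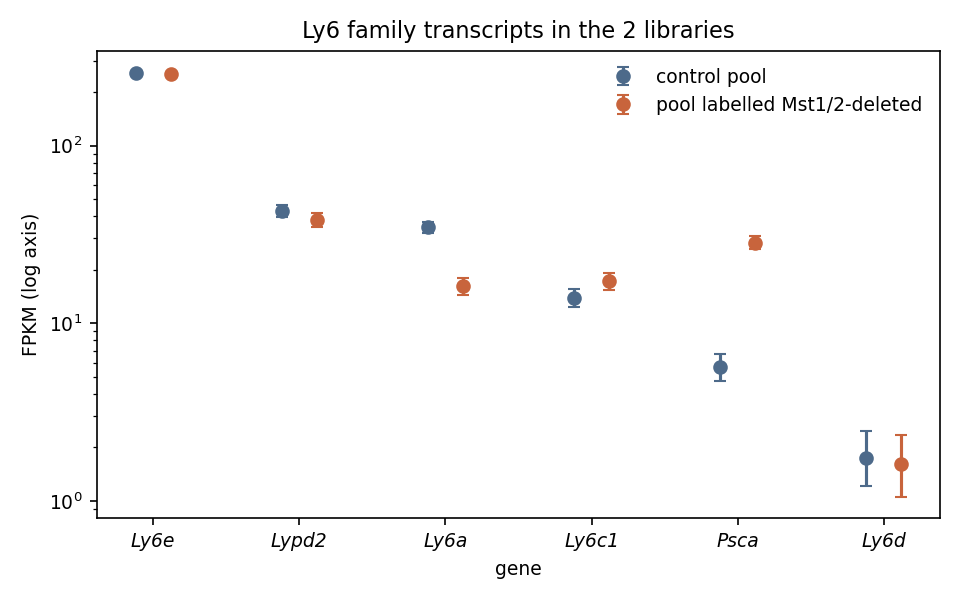
FPKM of each member (log axis) in the control pool and in the pool labelled Mst1/2-deleted, 1 library each; bars are 95% intervals for counting error only. Psca stands at 5.67 and 28.4 and Ly6a at 34.8 and 16.1, while the bars of the 2 libraries overlap for Ly6e, Lypd2, Ly6c1 and Ly6d.

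Psca (chr15:74545269-74547495, mm9) encodes prostate stem cell antigen, a GPI-anchored protein first described in prostate and also made by other epithelia, such as those of stomach and bladder. Its FPKM was 5.67 (interval 4.74 to 6.73) in the control pool and 28.4 (26.2 to 30.8) in the pool labelled Mst1/2-deleted, from about 131 and 589 reads. The ratio was 5.01 (4.15 to 6.12) and the log2 difference 2.14. Of the 9945 genes, 11 had a higher difference. Among the 9761 of them with status OK and transcripts of at least 300 bases there were 2, Igj (FPKM 1.06 and 9.58) and Iyd (2.72 and 16.4), named after their values were seen. The gene rested on a single transcript row, so its value did not depend on a division among isoforms. In rank among all gene symbols it stood at 3424 in the control pool and at 618 in the other.

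Ly6a (chr15:74825307-74828318), the Sca-1 gene, had an FPKM of 34.8 (32.4 to 37.3) in the control pool and 16.1 (14.4 to 17.98) in the second, from about 779 and 323 reads. It was 2.16-fold lower (1.89 to 2.46) in the pool labelled Mst1/2-deleted, a log2 difference of -1.06, with a lower difference in 84 of the 9945 genes. Its neighbour and close relative Ly6i had FPKM of 1.74 and 0.747, 2.33-fold lower (1.26 to 4.38). Summed with Ly6i, which removes the division of reads between these 2 genes, Ly6a had FPKM of 36.5 and 16.9, 2.16-fold lower (1.91 to 2.47). The direction of the Ly6a difference was therefore the same with and without this relative. The division of reads with Ly6c1 remains in both values.

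**Figure D2:**
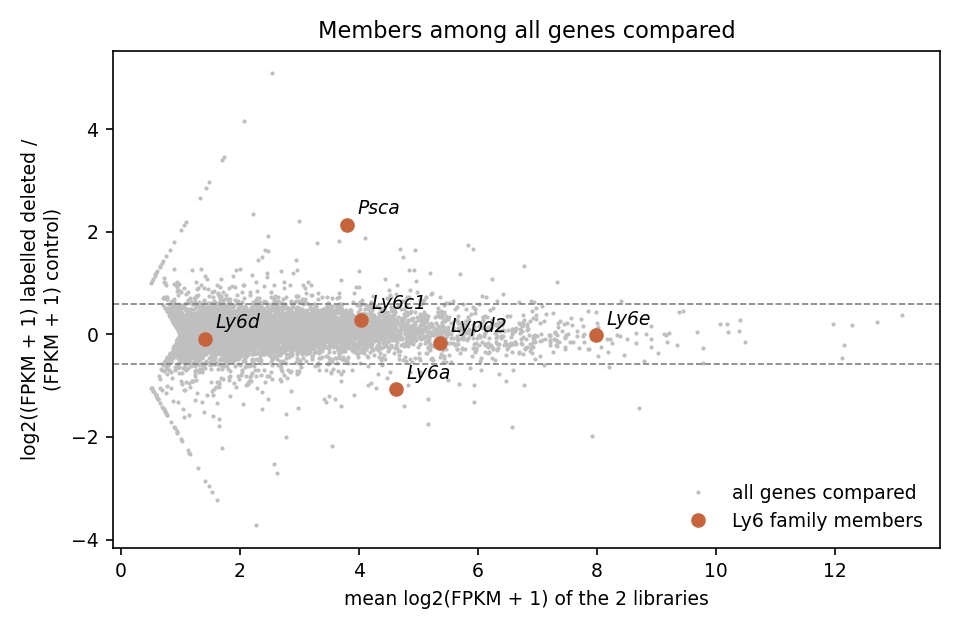
Log2 difference of (FPKM + 1) between the pool labelled Mst1/2-deleted and the control pool (vertical axis) against the mean log2(FPKM + 1) of both (horizontal axis), for 9945 genes in grey and the 6 members in orange; dashed lines mark 1.5-fold. Psca at 2.14 and Ly6a at -1.06 lie outside the lines, and the other members lie between them.

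Ly6c1 (chr15:74875445-74879260) encodes Ly-6C1, an antigen of endothelial cells and of some leukocytes. It had FPKM of 13.9 (12.4 to 15.5) in the control pool and 17.2 (15.4 to 19.1) in the second. The ratio was 1.24 (1.06 to 1.44), within the 1.5-fold rule. Ly6c2, the near-identical gene beside it and the Ly-6C gene of monocytes, stood at 3.67 and 6.83 FPKM, which gave a ratio of 1.86 (1.40 to 2.48). The sum of both, which does not depend on how their shared reads were divided, was 17.6 and 24.0, a ratio of 1.37 (1.20 to 1.57). It still depends on the division of the fewer reads that match Ly6a. The summed level was therefore higher in the library in which Ly6a was lower, and how much of it belonged to each gene is uncertain.

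Ly6e (chr15:74785481-74790335) encodes a GPI-anchored protein that is induced by interferon and restricts the entry of coronaviruses. It was the most abundant member, at FPKM of 255 (251 to 259) and 252 (247 to 256), rank 47 and 46 among all gene symbols. It made up 72.1% of the summed FPKM of the members in the control pool and 71.3% in the second. The ratio was 0.987 (0.962 to 1.01), and with 13416 and 11812 reads this was the narrowest interval among the members. The level was spread over 6 transcript rows. The shortest, NM_001164040 at 1864 bases, carried 62.0% and 63.9% of it, with FPKM of 158 and 161. NM_001164038 had FPKM of 61.9 and 59.2, NM_001164039 had 34.4 and 31.6, and the other 3 rows were each at 0.501 or less. The division among rows was thus alike in both libraries.

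Lypd2 (chr15:74562682-74564743), which encodes a family member with a LY6/PLAUR domain, had FPKM of 42.9 (39.4 to 46.5) and 38.1 (34.7 to 41.8). The ratio was 0.890 (0.784 to 1.01). Ly6d (chr15:74592486-74593997), a gene used as a marker of early B-lineage cells and of stratified squamous epithelium, had FPKM of 1.75 (1.20 to 2.46) and 1.60 (1.06 to 2.33), from about 33 and 27 reads. Its ratio of 0.916 had an interval of 0.529 to 1.57, so at this depth a 1.5-fold difference in either direction lies within counting error.

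In the control pool the order of the levels was Ly6e, Lypd2, Ly6a, Ly6c1, Psca and Ly6d. Each step in this order was larger than counting error, the smallest being that from Lypd2 to Ly6a, a ratio of 1.23 (1.11 to 1.38). In the pool labelled Mst1/2-deleted the order was Ly6e, Lypd2, Psca, Ly6c1, Ly6a and Ly6d. Ly6c1 and Ly6a could not be told apart there, with a ratio of 1.07 (0.913 to 1.24). Psca was thus 2.45-fold under Ly6c1 in the control pool (2.001 to 3.04) and 1.65-fold above it in the other (1.45 to 1.89). Without Ly6e, the members summed to FPKM of 98.9 and 101, so the summed level was close while its makeup was not.

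Along the chromosome, neighbouring genes did not share 1 direction. From Psca to Gpihbp1, a stretch of 883 kb, the tables listed 23 genes, 15 of them on the family list, and 11 reached FPKM of 1 in either pool. 4930572J05Rik, the gene next to Psca, stood at 3.76 and 6.12 FPKM, which gave a ratio of 1.63 (1.32 to 2.01), or 0.58 on the log2(FPKM + 1) scale and just under 1.5-fold. Lypd2, the next gene with a measured level, was at a log2 difference of -0.16. Ly6k, a family gene best known from testis, stood at 3.40 and 5.34 FPKM, which gave a ratio of 1.57 (1.15 to 2.17). Lynx1, whose product binds nicotinic acetylcholine receptors, had FPKM of 3.03 and 3.09. Ly6i and Ly6a, both lower, stood between Ly6e and Ly6c1. In a list of other genes in and around this stretch, 10 were measured and 0 passed 1.5-fold in either direction on this scale. Of these, only 4930572J05Rik lay between Psca and Gpihbp1, so the count mostly concerns genes outside the stretch. Over all genes the shares were 3.02% higher and 2.59% lower, so a count of 0 among 10 is near them. Rescaled to TPM, 3 were higher and 1 lower, with a pseudocount of 0.1 there were 2 higher, and centred on the median of all genes 1 was lower. Arc, an immediate early gene, had FPKM of 15.8 and 10.6, and Ptk2, the focal adhesion kinase gene, had 3.87 and 6.001.

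**Figure D3:**
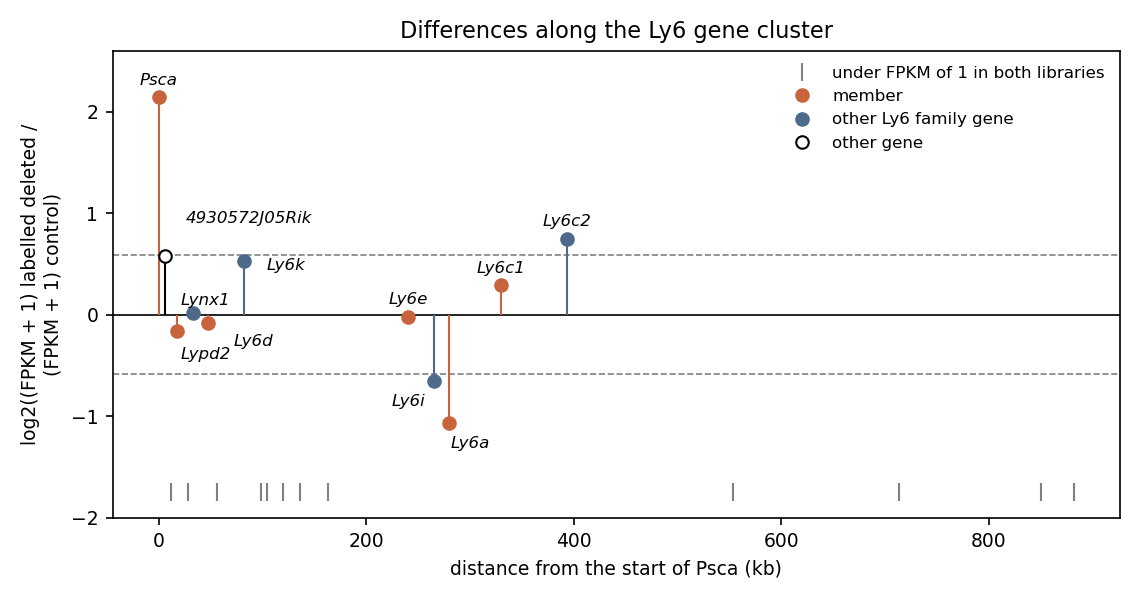
Log2 difference of (FPKM + 1) between the pool labelled Mst1/2-deleted and the control pool for the 11 measured genes of the Ly6 stretch of chromosome 15, against distance from the start of Psca in kb; grey ticks are genes under FPKM of 1 in both, and dashed lines mark 1.5-fold. Psca (2.14) and Ly6c2 (0.75) lie above the upper line, and Ly6a (-1.06) and Ly6i (-0.65) below the lower line.

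The wider family was read from a list of 43 genes, of which 34 were in the tables used. Outside the 6 members, 12 of 28 had FPKM of at least 1. Of these, 7 lay above 0 and 5 below, with 1 at least 1.5-fold higher (Ly6c2) and 2 at least 1.5-fold lower (Ly6i and Lypd6), beside 3.02% and 2.59% of all genes. Lypd6, whose product enhances Wnt signalling at the cell surface, had FPKM of 1.72 and 0.684, 2.52-fold lower (1.86 to 3.48), and its relative Lypd6b had 1.84 and 1.55. Cd59a, which protects cells from the complement membrane attack complex, had FPKM of 10.9 and 12.7, and Cd59b, its second mouse copy, had 2.996 and 2.88. Plaur, the receptor of the protease urokinase, had FPKM of 4.13 and 5.05. The genes of the major histocompatibility region on chromosome 17 were Ly6g6c (3.57 and 3.78), Ly6g6d (1.42 and 0.985) and Ly6g6e (0.652 and 1.06). The remaining 16 genes were under FPKM of 1 in both libraries, and 7 of them, such as Ly6f, Ly6h and Gml, were listed at 0 in both.

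The machinery that makes and attaches the GPI anchor was measured in 23 of 29 listed genes, and 0 passed 1.5-fold in either direction (1 was higher with a pseudocount of 0.1). Over all genes 3.02% passed upward and 2.59% downward, so 0 of 23 is near that share and nothing is read from it. The list had a median log2 difference of 0.14, with 16 above 0 and 7 below, beside 0.07 for all genes. Pgap2, which remodels the lipid of the anchor, had FPKM of 6.93 and 10.3. Gpaa1, a subunit of the transamidase that attaches the anchor, had 2.19 and 3.04, Pgap1, an inositol deacylase, 0.970 and 1.55, and Pign, an enzyme of anchor synthesis, 3.13 and 4.03. Dpm3, a subunit of the mannose donor synthase and the most abundant of them, had 12.4 and 12.4. The 17 measured genes of other GPI-anchored proteins had a median log2 difference of -0.01. Of them, 4 passed 1.5-fold downward and 0 upward, beside 2.59% and 3.02% of all genes. The 4 lower ones were Cd14, the lipopolysaccharide coreceptor (FPKM 21.9 and 9.13), the glypican Gpc3 (4.18 and 1.70), the dipeptidase Dpep1 (1.45 and 0.366) and the antiviral tether Bst2 (2.63 and 1.28).

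Ly6a and Ly6e are both induced by interferon in many cells, and the interferon list is given beside them. Of 21 measured genes, 2 were at least 1.5-fold higher and 3 lower, beside 3.02% and 2.59% of all genes. The median log2 difference of the list was -0.04. These counts depended on the scale. As TPM 2 were higher and 8 lower, beside 6.79% and 8.79% of all genes. With a pseudocount of 5, or among genes with FPKM of at least 5, 0 passed in either direction. None of the genes counted as higher or lower reached FPKM of 5, so that filter left them all out. The antiviral genes Ifit2 (FPKM 0.801 and 2.95) and Ifit3 (1.36 and 3.09) were higher, and Bst2, given above, Rtp4 (2.34 and 1.01) and Oasl2 (2.34 and 1.13) were lower. Psmb8, an immunoproteasome subunit gene and the most abundant of the list in the control pool, had FPKM of 6.34 and 6.15. Nicotinic acetylcholine receptor subunits, which several Ly6 proteins bind, were nearly all low. Only Chrnb1, a subunit of the muscle receptor, reached FPKM of 1 among 16 genes, at 5.96 and 9.67.

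Markers of cell types that carry Ly6 antigens also differed between the libraries. Their counts past 1.5-fold stand beside 3.02% higher and 2.59% lower over all genes. Of 17 endothelial markers, 2 had FPKM of at least 1, and the list summed to 16.5 in the control pool and 11.8 in the second. Kdr, a receptor of vascular endothelial growth factor, had FPKM of 9.05 and 5.11, the largest part of both sums. Esam, an endothelial adhesion molecule, went the other way, at 2.26 and 3.45. Of 13 mesenchymal markers, 4 were measured, all below 0 and 2 of them at least 1.5-fold lower, and the list summed to 20.8 and 9.37. Dcn, a matrix proteoglycan of fibroblasts, had FPKM of 11.9 and 3.79, and Mfap4 3.25 and 0.973. Of 11 measured leukocyte markers, 7 lay below 0 and 4 above; those 1.5-fold lower numbered 5 and those 1.5-fold higher 0. Rescaled to TPM, where the cut-off of 1 takes in further markers, 9 were lower and 2 higher, beside 8.79% and 6.79% of all genes. With a pseudocount of 0.1 there were 6 lower and 2 higher. With a pseudocount of 5, or among genes with FPKM of at least 5, 0 were lower. None of the 5 lower markers reached FPKM of 5 in either library. The lower ones were the signalling adaptor genes Tyrobp (3.07 and 0.644) and Fcer1g (4.45 and 1.36), the integrin gene Itgb2 (1.77 and 0.468), Laptm5 (2.15 and 0.679) and Coro1a (1.16 and 0.384). The leukocyte list summed to FPKM of 6197 and 7272, nearly all from Lyz2 (6170 and 7257), which alveolar type 2 cells of mouse also express. None of the endothelial, mesenchymal or leukocyte markers was listed at 0 in either library. With levels under FPKM of 1 included, 12 of 17 endothelial, 10 of 13 mesenchymal and 14 of 20 leukocyte markers lay below 0. In that comparison Ly6a was lower and the sum of Ly6c1 and Ly6c2 higher. Of these markers, 15 endothelial, 9 mesenchymal and 9 leukocyte ones were under FPKM of 1 in both libraries. There a sign can rest on few reads, such as about 10 and 5 for Sox17. Among the 9945 genes that reached FPKM of 1, 3355 had a lower difference than Ly6e (-0.019). That set leaves out lower levels, so it is no matched share, and nothing is read from these counts. The part of endothelial, mesenchymal and leukocyte cells in the Ly6a and Ly6c1 values was not tested.

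Markers of other epithelial cells moved with the library as well, and their counts stand beside the same shares of all genes (3.02% higher and 2.59% lower). Of 13 measured alveolar type 1 cell markers, 11 passed 1.5-fold upward and 0 downward in the pool in which Psca was higher, and the list summed to FPKM of 367 and 769. Ager, a receptor of type 1 cells, had FPKM of 32.9 and 107, the homeodomain gene Hopx 13.6 and 45.4, and the anchoring protein gene Akap5 1.88 and 9.88. Of 12 alveolar type 2 markers, Lpcat1 (93.7 and 149) passed 1.5-fold upward and Lcn2 (369 and 236) downward, at a median log2 difference of 0.37. This list summed to FPKM of 12316 and 14974. The club cell list, without a measured level of Scgb1a1, summed to 12903 and 11078. All 8 measured ciliated cell markers lay above 0, 3 of them at least 1.5-fold higher (Tppp3 at 24.98 and 40.2, Ak7 at 0.899 and 1.87, and Fam183b at 0.196 and 1.91). Among 9 measured basal and squamous genes, 3 passed 1.5-fold downward and 1 upward. Krt5, the basal cell keratin, had FPKM of 10.7 and 2.998, Krt15 had 7.56 and 2.59, Aqp3 had 3.12 and 1.74, and the squamous keratin Krt4 had 0.345 and 1.18. All 4 measured mucous cell genes passed 1.5-fold downward, with Muc5b at 17.7 and 6.85, Clca3 at 7.62 and 2.16, Agr2 at 2.73 and 0.535, and Tff2 at 1.80 and listed at 0. Of 16 measured club cell markers, Lypd2 itself included, 4 passed 1.5-fold downward and 1 upward, among them Scgb3a1 at 477 and 121, Scgb3a2 at 691 and 256, Reg3g at 39.0 and 19.1, and Cyp2b10 at 17.7 and 43.5. Oasl2 and Coro1a were named after their values were seen. The part of these cell types in the Psca and Ly6a differences was not tested.

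**Figure D4:**
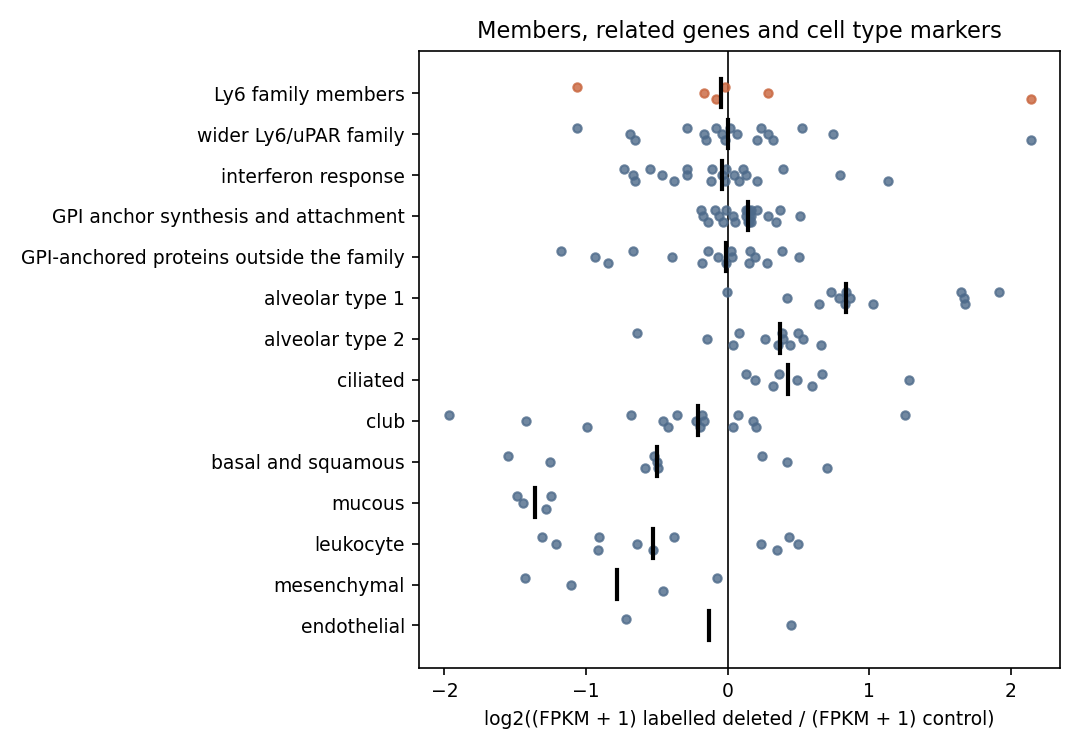
Log2 difference of (FPKM + 1) between the pool labelled Mst1/2-deleted and the control pool (horizontal axis) for each gene with FPKM of at least 1 in the members (orange) and in the related gene and marker lists (blue); black bars are list medians, and the vertical offset of the points only separates them. The members spread from -1.06 to 2.14 around a median of -0.05, while the alveolar type 1 list has a median of 0.84 and the mucous list one of -1.36.

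Genes nearest in level to each member were found as the smallest distance over the values of log2(FPKM + 1) in the 2 libraries, which with 2 libraries describes levels only. Nearest to Psca were Porcn (FPKM 5.74 and 22.9, distance 0.30) and Akr1c14 (8.02 and 32.1, distance 0.47). Nearest to Ly6a were Acsf2 (28.99 and 15.7, distance 0.26) and Aldh3a1 (28.6 and 16.9, distance 0.28). Ly6e had Gsta4 (249.9 and 237) and Atp1b1 (244 and 264) beside it, at distances of 0.091 and 0.095. The other members had neighbours within a distance of 0.051, namely 1600012F09Rik and Gpx8 for Ly6c1, AI413582 and Gle1 for Ly6d, and Rpl35a and Serp1 for Lypd2.

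Of the 6 members, 1 (Ly6c1) was matched in the RefSeq promoter table of GRCm38.p6, with 2 start sites and windows from 250 bases before to 50 bases after each. The interferon-related motifs GAAANNGAA and TTCNNNGAA and the Tead motif GGAATG were searched on both strands; matches of the first and the second can share bases. Among all 32851 windows they were present in 8.56%, 8.30% and 14.7%. In the Ly6c1 windows 0 matches were found for each, which says only that these letters are not in these windows.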

How the data were processed

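Each library was made, per the labels' protocols, from pooled RNA of 4 mice with the RNeasy Micro and Nextera XT kits. The submitters' processing notes name TopHat, Cufflinks and the mm9 build; the sources used here give neither versions nor settings. For each of 28107 transcript rows, per the file headers, the authors deposited an FPKM value and a coverage, a signal that gives the mean read depth. Deposited starts count from 0 and were raised by 1.

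FPKM was summed per gene symbol (pandas 2.3.3). Differences are log2(FPKM + 1) of the pool labelled Mst1/2-deleted minus that of the control pool, for genes that reached FPKM of 1 in either. Coverage times length, over 47.1 bases taken as 1 read (an assumption: the median of single-transcript rows worth 25 to 75 bases), gave approximate reads. Exact intervals (Clopper-Pearson for ratios and Poisson for levels, SciPy 1.17.1) were computed from these. The ratio intervals were tried on simulated whole counts with counting error alone. That does not test them for the assumed read length, for divided reads or for amplification. Whole reads were not recovered (26.0% and 25.9% of low values lay within 0.1 of a whole read), so no count test was run. Amplified reads are not independent molecules.

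Coding sequences came from GENCODE M21 (GRCm38), matched by RefSeq identifier and aligned globally (Biopython 1.88). The members and the 15 lists were chosen with earlier results of these data known. Genes named are the members, all measured family genes, genes of other lists among the 4 with the largest difference or the most abundant, and the 2 nearest in level to each member. A club cell marker past 1.5-fold is not reported here by name.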

Additional observations from a re-analysis of the deposited data

How the results depend on the processing

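The members were recomputed with other pseudocounts, the highest row per symbol, rescaling to TPM and centring on the median of all genes, and, chosen after the data were seen, with Ly6a summed with Ly6i and Ly6c1 summed with Ly6c2. The direction was kept in 31 of these 32 values, and 28 moved by less than counting error. Part of this was fixed in advance. A pseudocount cannot change a direction, and every member except Ly6e rests on a single row, so its highest row gives the main value again. For those members only rescaling, centring and the sums with relatives could have changed the direction. The log2 difference of Psca fell to 1.65 with a pseudocount of 5, and that of Ly6a ranged from -1.15 to -0.91. Ly6e, near 0 as reported, was at 0.026 with the highest row per symbol, -0.071 after rescaling to TPM and -0.089 after centring, so it has no direction here. With these settings, filters of none and of FPKM of 5, and without other statuses and transcripts under 300 bases, Psca remained the 1 member counted as higher and Ly6a the 1 counted as lower in all 16 recounts. Both genes pass every filter and have a single row, so the recounts with filters and with the highest row could not drop them. The share of all genes past 1.5-fold was 6.17% higher and 4.79% lower with a pseudocount of 0.1, 0.845% and 0.684% with a pseudocount of 5, 6.79% and 8.79% as TPM and 1.45% and 1.33% without a filter; with the highest row per symbol 4.57% were higher. Taking 75 bases as 1 read left all 12 bounds of the members' ratios on the same side of 1.

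Of 240 recomputed counts of list genes past 1.5-fold, 46 moved by over 1.5 times or from or to 0, in 12 of the 15 lists; the club, alveolar type 1 and alveolar type 2 counts did not. Of the 46, 15 came with TPM, 12 with a pseudocount of 5, 9 among genes with FPKM of at least 5, 8 with a pseudocount of 0.1 and 2 with centring. As TPM the cut-off of 1 takes in genes under FPKM of 1, so more genes were counted than those measured above. On that scale 8.79% of all genes were lower and 6.79% higher. There, 6 endothelial, 5 mesenchymal, 7 basal and squamous and 8 mucous genes were lower and 5 ciliated genes higher. With a pseudocount of 5 these were 0, 1, 2, 2 and 1, and 1 gene of other GPI-anchored proteins was lower instead of 4. Of the wider family, members included, 3 were higher and 6 lower as TPM and 1 and 1 with a pseudocount of 5.

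Of 120 recomputed list medians 10 took the other sign, in 6 lists, and 2 became 0. Among genes with FPKM of at least 5, the interferon median was 0.04, that of other GPI-anchored proteins 0.20 and the leukocyte median 0.23. That filter left fewer genes in these lists. Nearly all of the leukocyte level came from Lyz2, which alveolar type 2 cells also express, so that median is not read as one of leukocytes. The causes were not tested. Depth limits Ly6d most, with about 33 and 27 reads. No paired analysis was possible because each genotype has 1 pooled library.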
